A study of Mus musculus with 24 samples.

Results

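GABA receptor subunits were examined in whole brain as 6 genes: Gabra2, Gabra3, Gabra6, Gabrb2 and Gabrd of the GABA-A receptor and Gabbr1 of the GABA-B receptor. They were chosen by symbol in the platform's probe annotation, out of 13840 genes that it names on the array. Of their 7 probes, Gabrb2 has 2 (406109 and 732953) and the others 1 each; all 7 passed the signal filter described below, and the brightest probe stood for a gene. Whole-brain total RNA of males 12 weeks old was hybridised, 1 array per mouse, with 3 mice in each of 4 groups. Acads+/+ mice were BALB/cByKZ and Acads−/− mice were BALB/cByJ, which carry a spontaneous deletion in Acads, the gene of short-chain acyl-CoA dehydrogenase, so that genotype and substrain cannot be told apart. Mice of both kinds ate chow and then HF (high-fat, D12331) or LF (low-fat, D12329) diet for 2 days.

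GABA is the main inhibitory transmitter of the adult brain. GABA-A receptors are pentameric chloride channels, usually of α and β subunits with a γ or a δ subunit, and the α subunit sets much of the receptor's place and its response to benzodiazepines. GABA-B receptors are G-protein-coupled, and each pairs the GABA-binding subunit encoded by Gabbr1 with that encoded by Gabbr2.

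On HF diet 5 of the 6 genes were lower in Acads−/− than in Acads+/+ mice, by 1.70-fold for Gabrd to 4.37-fold for Gabbr1, and the brightest probe of Gabrb2 was not called; of all tested probes 34.9% were called in this comparison, 17.4% lower and 17.5% higher. On LF diet none of the 6 differed by genotype past the test. In Acads+/+ mice Gabra2, Gabra3 and Gabbr1 were higher on HF than on LF diet, by 1.71-, 1.94- and 2.64-fold, where 32.9% of all tested probes were called and 15.5% higher. In Acads−/− mice none was called for diet. The study listed Gabbr1, Gabrb2 and Gabra3 among genes chosen on these same arrays, so their direction is not independent evidence.

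A property of the arrays bears on every comparison that uses the Acads+/+ HF group. Its 3 arrays stood apart, at −46.3 to −108 on the first principal component (49.2% of the variance) against 18.6 to 33.8 for the other 9 arrays. On them, genes of long genomic span had higher log2 signal relative to the mean of all arrays (Spearman's rho across probes 0.278 to 0.427). On the other 9 arrays rho was −0.329 to −0.173, which follows in part from setting each array against that mean. The HF genotype comparison and the diet comparison in Acads+/+ mice share these 3 arrays, so their values below are given side by side and are not 2 independent observations. The Acads probe, as a check of the labels, was lower in Acads−/− mice by 2.39 on the log2 scale on HF diet (adjusted p = 0.00248 from limma); on LF diet its log2 difference was −1.87, which was not called (adjusted p = 1.00, unadjusted p = 0.00217). Array 17962 of the Acads+/+ LF group had an Acads signal of 9.87, under the other Acads+/+ arrays (11.22 to 11.92) and within the 7.90 to 10.02 of the Acads−/− arrays.

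The stretches of 250 bases upstream of the annotated starts of 3 members are shown. Gabbr1 was taken because it had the largest fold change of the 6. Gabra6 and Gabrb2 are neighbours on chromosome 11, and their brightest probes differed in their calls for genotype on HF diet. Probe 732953 of Gabrb2 was called there at a log2 fold change of −1.10, as was Gabra6 at −1.10. The sequences are RefSeq's, build GRCm38.p6, and run 5′ to 3′ on the gene's strand. Capitals mark matches to the TATA box (TATAAA) or the GC box (GGGCGG), searched on both strands.
Gabbr1, chr17:37045716-37045965, plus strand: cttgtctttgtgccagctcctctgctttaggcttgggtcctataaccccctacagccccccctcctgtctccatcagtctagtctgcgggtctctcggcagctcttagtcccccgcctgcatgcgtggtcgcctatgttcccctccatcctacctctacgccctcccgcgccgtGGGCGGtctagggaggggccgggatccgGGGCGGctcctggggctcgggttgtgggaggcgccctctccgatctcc
Gabra6, chr11:42321073-42321322, minus strand: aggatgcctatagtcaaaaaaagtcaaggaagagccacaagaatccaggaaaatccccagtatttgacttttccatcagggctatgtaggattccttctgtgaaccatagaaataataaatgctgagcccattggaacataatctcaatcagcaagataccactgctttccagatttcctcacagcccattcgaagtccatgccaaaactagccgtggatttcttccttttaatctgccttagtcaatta
Gabrb2, chr11:42420190-42420439, plus strand: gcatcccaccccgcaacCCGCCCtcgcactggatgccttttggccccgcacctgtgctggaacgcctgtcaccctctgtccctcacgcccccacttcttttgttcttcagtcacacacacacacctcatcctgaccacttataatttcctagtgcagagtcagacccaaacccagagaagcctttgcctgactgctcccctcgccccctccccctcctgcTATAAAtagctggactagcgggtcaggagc

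The windows are unlike in base composition: 66% G and C for Gabbr1, 40.8% for Gabra6 and 58.8% for this Gabrb2 start, against a median of 52.4% over 32851 windows of the table. GC boxes occurred 2 times in the Gabbr1 window and once in that of Gabrb2, and 32.7% of all windows hold at least 1. The TATA box of Gabrb2 is a match that 12.4% of all windows share. In the Gabra6 window neither motif was found, and the letters TGACG, the core of the cAMP response element, which 17.8% of all windows hold, were in none of the 8 windows that the table holds for 5 of the members. Gabrd has none there. Gabrb2 has 2 further annotated starts and Gabra3 has 2; Gabra2 has 1, at 70% G and C.

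The α subunits of the forebrain come first. Gabra2 encodes α2, a subunit of receptors sensitive to benzodiazepines that is abundant in the hippocampus and striatum. In log2 signal it reached 15.34, 15.30 and 15.26 in HF Acads+/+ mice (arrays 18017, 18022 and 18018) and 14.32, 14.35 and 14.90 in LF Acads+/+ mice (arrays 17962, 18020 and 18021). HF Acads−/− mice gave 14.22, 13.72 and 14.64 (arrays 17873, 17956 and 17973), and LF Acads−/− mice 14.32, 14.30 and 14.43 (arrays 17866, 17981 and 17982). Below, arrays follow this order. All 3 Acads+/+ HF arrays lay above the other 9, which overlapped one another. Between genotypes on HF diet the log2 fold change of Gabra2 was −1.11 (standard error 0.23, adjusted p = 0.00295). Between diets in Acads+/+ mice it was 0.77 (standard error 0.23, adjusted p = 0.0177). That diet call was lost without array 17962 (0.67, adjusted p = 0.0704) or array 18020 (0.68, adjusted p = 0.0586).

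Gabra3 encodes α3, a subunit found in cortex, brainstem and thalamic reticular neurons. HF Acads+/+ mice had 12.17, 12.49 and 12.60, and LF Acads+/+ mice 11.69, 11.18 and 11.53. HF Acads−/− mice had 11.43, 10.88 and 11.17, and LF Acads−/− mice 11.44, 11.37 and 11.49. Again the Acads+/+ HF group lay above all others without overlap. HF Acads−/− vs. HF Acads+/+ mice differed by −1.26 on the log2 scale (standard error 0.19, adjusted p = 5.97e-04). HF vs. LF Acads+/+ mice differed by 0.96 (standard error 0.19, adjusted p = 0.00281).

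**Figure D1:**
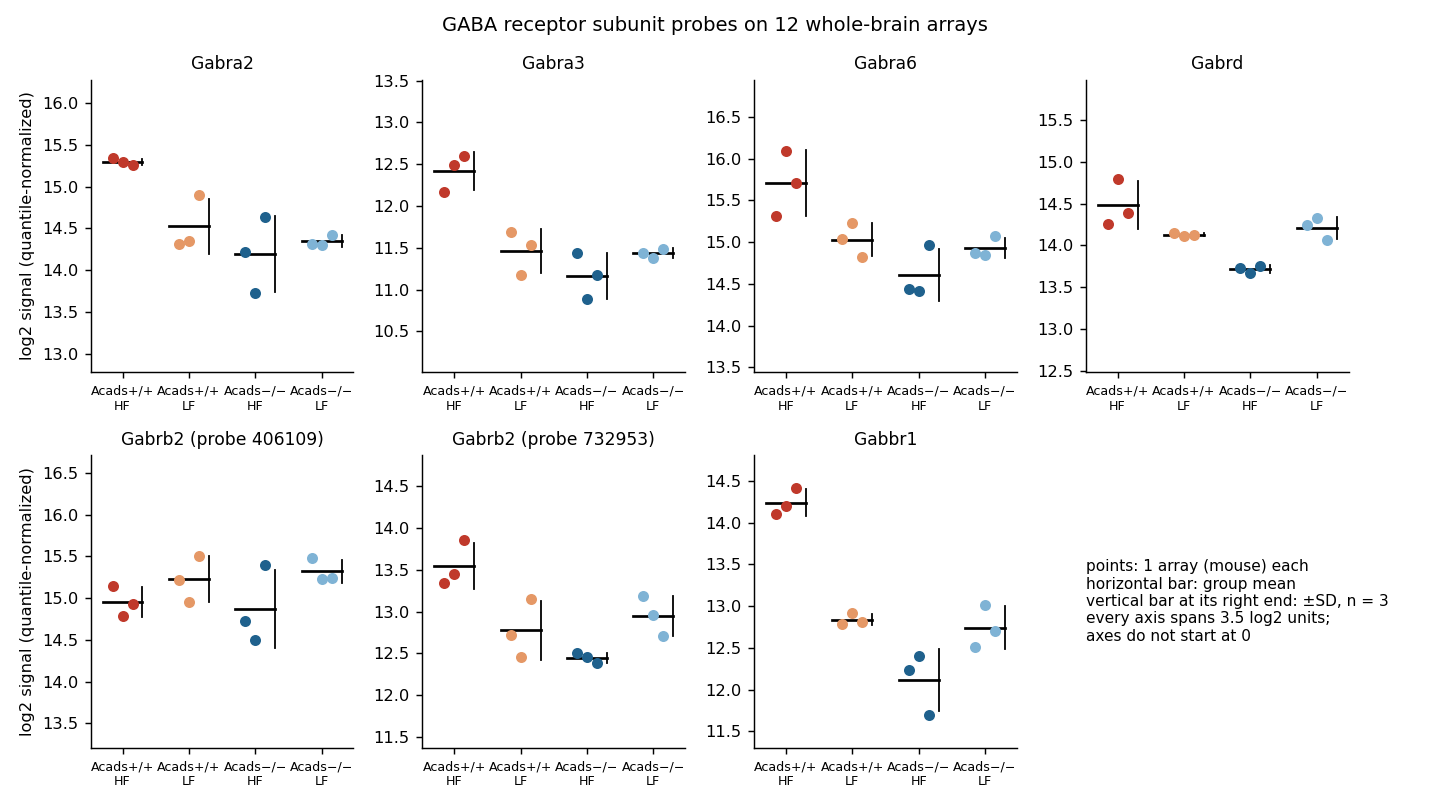
Log2 signal of the 7 probes on the 12 whole-brain arrays, by group; each point is 1 array (1 mouse), horizontal bars are group means and vertical bars the SD of 3 mice. The Acads+/+ HF points lie above all 9 others for Gabra2, Gabra3, Gabra6, Gabbr1 and probe 732953 of Gabrb2, and within the range of the others for probe 406109 of Gabrb2.

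Gabra6 and Gabrd are known above all from cerebellar granule cells. Gabra6 encodes α6 and Gabrd encodes δ, and the proteins assemble together in extrasynaptic receptors that carry tonic inhibition there; δ also pairs with α4 in the forebrain. Gabra6 had a log2 signal of 15.31, 16.10 and 15.71 in the Acads+/+ HF group and of 15.04, 15.23 and 14.83 in the Acads+/+ LF group. It had 14.44, 14.41 and 14.97 in the Acads−/− HF group and 14.87, 14.85 and 15.07 in the Acads−/− LF group. The Acads+/+ HF arrays were highest, though array 18017 lay only just above the highest of the Acads+/+ LF arrays. For genotype on HF diet the log2 fold change was −1.10 (standard error 0.22, adjusted p = 0.00274). HF vs. LF Acads+/+ mice gave 0.68 (adjusted p = 0.0287), a fold of 1.597, which missed the minimum of 1.6, so Gabra6 was not called there. Without array 18017 (0.88) or array 18020 (0.77) it was called.

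Gabrd had 14.25, 14.80 and 14.39 in the Acads+/+ HF group and 14.14, 14.11 and 14.12 in the Acads+/+ LF group. In the Acads−/− HF group it had 13.73, 13.66 and 13.75, and in the Acads−/− LF group 14.24, 14.32 and 14.06. Here the Acads−/− HF arrays were the lowest 3 of the 12, and the Acads+/+ HF arrays overlapped the Acads−/− LF arrays. HF Acads−/− vs. HF Acads+/+ mice differed by −0.76 on the log2 scale for this gene (standard error 0.15, adjusted p = 0.00276), and HF vs. LF Acads+/+ mice 0.35 (adjusted p = 0.0805, not called). Without array 18022 the HF genotype value was −0.61, under the minimum fold, and Gabrd was not called.

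Levels of 7 detected markers of cerebellar granule neurons were set beside these members. Their mean log2 signal ranged from 14.92 to 15.25 over the Acads+/+ HF arrays, 15.08 to 15.22 in Acads+/+ LF, 14.79 to 14.95 in Acads−/− HF and 15.17 to 15.24 in Acads−/− LF mice, and their summed signal from 366542 to 476884 over the 12 arrays. For genotype on HF diet Grin2c (−1.04) and Etv1 (−0.89) were lower, Zic1 was higher (1.05), and the median of the 7 was −0.43. None of the 7 was at the floor, the value to which dim signals were raised, on all 3 arrays of a group. The part of these cells in the values of Gabra6 and Gabrd was not tested, and in whole brain fewer cells of a type cannot be told apart from less RNA per cell.

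Gabrb2 encodes β2, the partner of α1 and γ2 in the most common GABA-A receptor of the brain. Its 2 probes disagreed. Probe 406109, the brightest, gave a log2 signal of 15.15, 14.78 and 14.94 in the Acads+/+ HF group and 15.22, 14.96 and 15.51 in the Acads+/+ LF group. It gave 14.72, 14.51 and 15.40 in the Acads−/− HF group and 15.48, 15.23 and 15.25 in the Acads−/− LF group. All pairs of groups but the Acads+/+ HF and Acads−/− LF arrays overlapped, and no comparison was called. Its log2 fold change was −0.08 in HF Acads−/− vs. HF Acads+/+ mice (95% interval −0.59 to 0.43, adjusted p = 0.798). In HF vs. LF Acads+/+ mice it was −0.28 (95% interval −0.78 to 0.23, adjusted p = 0.347).

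Probe 732953 of Gabrb2 gave 13.34, 13.44 and 13.86 in the Acads+/+ HF group and 12.72, 12.46 and 13.15 in the Acads+/+ LF group. It gave 12.50, 12.45 and 12.38 in the Acads−/− HF group and 13.18, 12.96 and 12.70 in the Acads−/− LF group. On this probe the Acads+/+ HF arrays lay above the other 9. Its log2 fold change between genotypes on HF diet was −1.10 (standard error 0.21, adjusted p = 0.00199), and HF vs. LF Acads+/+ mice gave 0.77 (standard error 0.21, adjusted p = 0.0126). The second call was lost without array 18018 (0.61, adjusted p = 0.0550) or array 18020 (0.61, under the minimum fold). Over the 12 arrays the log2 signals of the probes had a Pearson's r of 0.11. The difference between their fold changes was not tested, and the position of each probe in the transcript was not used here.

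Gabbr1 encodes the GABA-B subunit that binds the transmitter. It had 14.11, 14.20 and 14.41 in the Acads+/+ HF group and 12.78, 12.91 and 12.81 in the Acads+/+ LF group. It had 12.24, 12.40 and 11.70 in the Acads−/− HF group and 12.51, 13.02 and 12.70 in the Acads−/− LF group. The Acads+/+ HF arrays lay more than 1 log2 unit above every other array, and the Acads−/− HF arrays were the lowest 3. Between genotypes on HF diet its log2 fold change was −2.13 (standard error 0.20, adjusted p = 1.22e-04), and HF vs. LF Acads+/+ mice gave 1.40 (standard error 0.20, adjusted p = 5.45e-04). Leaving out each array in turn, the first stayed between −2.27 and −1.91 and the second between 1.32 and 1.48.

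**Figure D2:**
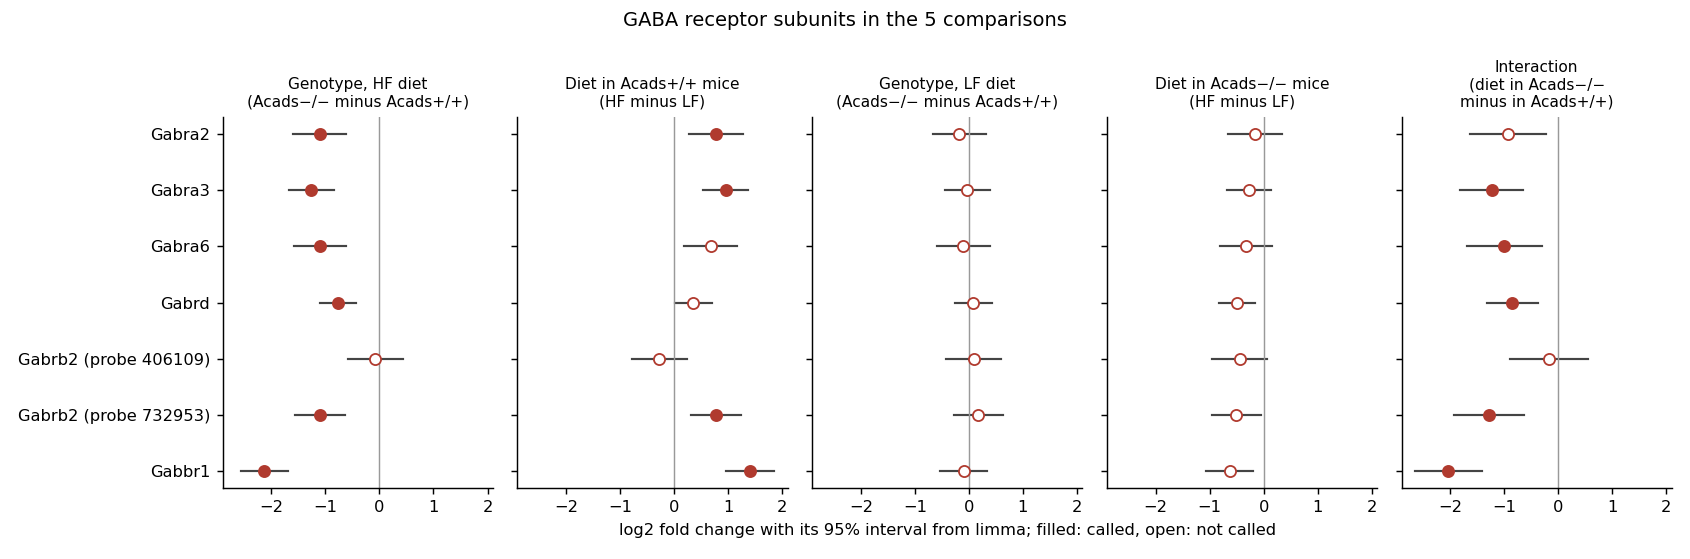
Log2 fold change of each probe in 5 comparisons (panels) with its 95% interval from limma as a horizontal line; filled points were called and open points were not. For genotype on HF diet all probes but 406109 of Gabrb2 lie between −2.13 and −0.76, and for genotype on LF diet all 7 lie between −0.18 and 0.17.

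Counted over the 6 genes, 5 were called lower and 0 higher for genotype on HF diet, where 34.9% of all 16506 tested probes were called, 17.4% lower and 17.5% higher. A call needed an adjusted p under 0.05 and a fold of at least 1.6. The median log2 fold change of the 6 was −1.10, against −0.13 over all tested probes. For diet in Acads+/+ mice 3 were called higher and 0 lower, where 32.9% of all tested probes were called, 15.5% higher and 17.3% lower, and the medians were 0.72 and 0.12. Of the 7 probes, 5 had the Acads+/+ HF arrays above all 9 others, which 21.6% of all tested probes did.

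The fold changes in both comparisons went with the genomic span of the gene over 9027 tested probes (Spearman's rho −0.40 in HF Acads−/− vs. HF Acads+/+ and 0.42 in HF vs. LF Acads+/+ mice). The members lie on both sides of the median span of named genes, 18462 bases. Gabra2 (137.5 kb), Gabra3 (224.2 kb) and Gabrb2 (213.1 kb) belong to the bin of longest genes when tested probes were split by span into 10 equal bins, whose median log2 fold change for genotype on HF diet was −0.59, with the middle 50% of probes from −0.95 to −0.17. Gabra6 (14.6 kb) and Gabrd (13.1 kb) belong to a bin with a median of −0.06 and a middle 50% from −0.49 to 0.38. For Gabbr1 (28.3 kb) the median was −0.42 and the middle 50% ran from −0.80 to 0.03. All 5 called members lay below the middle 50% of their bin, and probe 406109 of Gabrb2 lay above it. For diet in Acads+/+ mice the bin of longest genes had a median of 0.56 and a middle 50% from 0.20 to 0.89, which held Gabra2 (0.77) and probe 732953 of Gabrb2 (0.77). Gabrd (0.35) lay within the middle 50% of its bin too, Gabra3, Gabra6 and Gabbr1 above it, and probe 406109 below it.

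When a loess trend of log2 signal on span was subtracted array by array, the 5 members were called again for genotype on HF diet, where 33.1% of all tested probes then were. In HF vs. LF Acads+/+ mice 2 members were called after the removal, beside 31% of all tested probes. Of the rest, Gabra2 had a log2 fold change of 0.50 (adjusted p = 0.101) and Gabra3 0.64 (adjusted p = 0.0175, under the minimum fold), both not called. Gabra6 had 0.79 (adjusted p = 0.0189) and was called, beside Gabbr1. Probe 732953 of Gabrb2 had 0.46 (adjusted p = 0.0749).

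**Figure D3:**
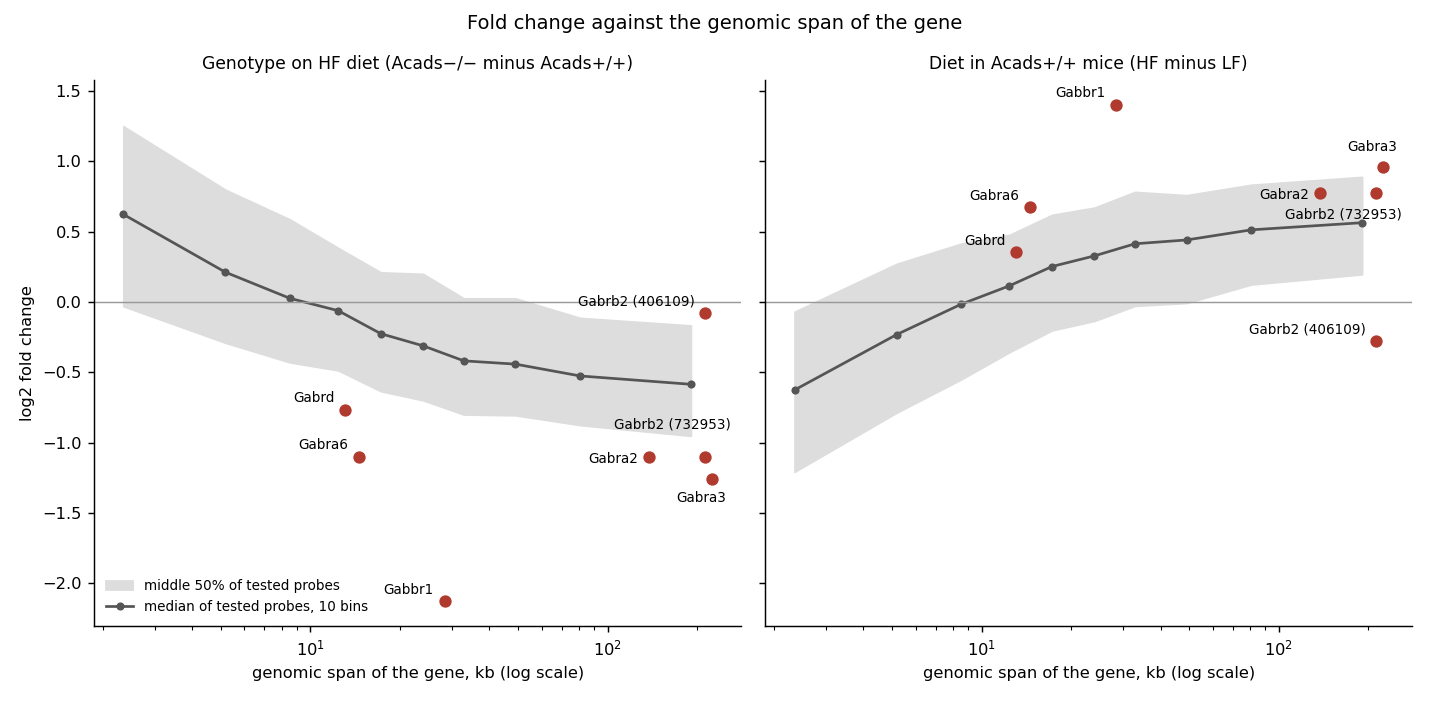
Log2 fold change against the genomic span of the gene (log axis, kb) in HF Acads−/− vs. HF Acads+/+ and in HF vs. LF Acads+/+ mice. The grey line gives the median and the band the middle 50% of tested probes in 10 span bins, and red points are the 7 member probes; Gabbr1, at −2.13 and 1.40, lies outside the band in both panels.

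On LF diet, the comparison of genotypes that does not use the Acads+/+ HF arrays, the members had log2 fold changes from −0.18 (Gabra2, 95% interval −0.67 to 0.32) to 0.09 for the brightest probes, and 0.17 for the other Gabrb2 probe. All had an adjusted p of 1.00. Of all tested probes 0.0182% were called. Gabbr1 had −0.09 (95% interval −0.53 to 0.34) and Gabrd 0.08 (95% interval −0.25 to 0.42), and the 95% intervals of all 7 probes lay within a 1.6-fold change in either direction.

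In Acads−/− mice 0 members were called for diet with limma, as was 0% of all tested probes. All 6 genes had negative values, as did 50% of tested probes. Gabrd had −0.49 (standard error 0.15, adjusted p = 0.435, unadjusted p = 0.00830) and Gabbr1 −0.63 (standard error 0.20, adjusted p = 0.435, unadjusted p = 0.00886), and for both the HF arrays lay below the LF arrays, a pattern that 8.25% of tested probes had. Probe 732953 of Gabrb2 also had it, with −0.50 (adjusted p = 0.484, unadjusted p = 0.0339). Gabra2 (−0.15), Gabra3 (−0.27), Gabra6 (−0.32) and probe 406109 of Gabrb2 (−0.44) overlapped between diets, with unadjusted p from 0.0807 to 0.506. At an unadjusted p under 0.05 with the minimum fold 4.86% of all tested probes passed, and none of the 7. Array 17973 gave the highest signal of the Acads−/− HF group for Gabra2, Gabra6, Gabrd and probe 406109 of Gabrb2. It gave the lowest for Gabbr1 and probe 732953 of Gabrb2. Its median deposited signal was 1749, against 1029 and 976 on the other arrays of that group.

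The interaction, the effect of diet in Acads−/− mice minus that in Acads+/+ mice, was called for 4 of the 6 genes, all negative, where 22.7% of tested probes were called and 10.6% lower. Gabbr1 had −2.03 (standard error 0.28, adjusted p = 0.00205), Gabra3 −1.23 (standard error 0.27, adjusted p = 0.00957), Gabra6 −0.997 (standard error 0.31, adjusted p = 0.0407) and Gabrd −0.85 (standard error 0.22, adjusted p = 0.0193). Probe 732953 of Gabrb2 had −1.27 (adjusted p = 0.0127). Gabra2 had −0.93 and missed the test (adjusted p = 0.0555). The call of Gabra6 held only without array 18017, 18020 or 17973 among the 12 fits that leave out 1 array, with adjusted p of 0.0637 to 0.0903 in the other 9. Gabra2 was called without array 18021 (−1.12) or array 17973 (−1.14).

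HF Acads−/− mice were also set directly against LF Acads+/+ mice, a choice made once the values were known. The 6 genes had log2 fold changes from −0.72 (Gabbr1, standard error 0.20, adjusted p = 0.652, unadjusted p = 0.00381) to −0.30 (Gabra3), and 0 were called with limma, against 0.0303% of all tested probes. Gabbr1 and Gabrd (−0.41, unadjusted p = 0.0220) did not overlap between these groups, as 4.83% of tested probes with lower values in Acads−/− mice did.

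Other GABA-A subunits were followed from a list of 14, of which 8 are named on the array and 4 passed the signal filter. For genotype on HF diet 2 of the 4 were lower and 0 higher: Gabrg1, the γ1 subunit gene next to Gabra2 on chromosome 5 (−0.72, standard error 0.21, adjusted p = 0.0154), and Gabra5, which encodes α5, a subunit of hippocampal extrasynaptic receptors (−0.69, standard error 0.16, adjusted p = 0.00634). HF vs. LF Acads+/+ mice had 0 of the 4 called, with values from 0.40 to 0.51. Over all tested probes 34.9% were called for genotype on HF diet, 17.4% lower, and 32.9% for diet in Acads+/+ mice, 15.5% higher. Of 3 tested genes for the GABA-B partner and auxiliary subunits, Kctd12, an auxiliary subunit that shapes the receptor's desensitization, was lower for genotype on HF diet (−0.82, adjusted p = 0.0268) and higher for diet in Acads+/+ mice (0.96, adjusted p = 0.0146). The median of the 3 was −0.06 in the first comparison. Gabbr2, the partner of Gabbr1, was not among the named probes.

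Of 8 tested genes for GABA synthesis, transport and breakdown, 4 were lower and 1 higher for genotype on HF diet, with a median of −0.79. Over all tested probes 17.4% were lower and 17.5% higher, with a median of −0.13. Gad1, a GABA-synthesizing decarboxylase, had −1.02 (adjusted p = 0.00131), Abat, the transaminase that breaks GABA down, −1.002 (adjusted p = 0.00186), and Slc6a12, a betaine and GABA transporter, −1.42 (adjusted p = 0.0117). Slc32a1, the vesicular GABA transporter, was the fourth (−1.01, adjusted p = 8.62e-04). Aldh5a1, which encodes the next enzyme of GABA breakdown after Abat, was the gene called higher, on the 1 probe that carries its symbol (1.31, standard error 0.40, adjusted p = 0.0219). In HF vs. LF Acads+/+ mice Abat (1.21), Gad1 (1.19), Slc32a1 (1.09) and Gad2 (0.73) were higher, and 0 were lower, where 32.9% of all tested probes were called.

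Of 10 tested genes for anchoring and trafficking of GABA-A receptors, 7 were lower and 0 higher for genotype on HF diet (median −0.78), and 5 were higher and 0 lower for diet in Acads+/+ mice (median 0.74). The shares called over all tested probes were 34.9% and 32.9%, and the medians −0.13 and 0.12. Gabarapl1, of the family that binds γ2 and autophagy proteins, had −1.34 (adjusted p = 3.08e-04) and 1.23 (adjusted p = 5.27e-04). Ubqln1, a ubiquitin-like protein that binds GABA-A subunits, had −1.03 and 1.23, and Plcl2 −0.82 and 0.80. Trak2, a kinesin adaptor, had −0.79 in the first comparison. In the second, Nlgn2, the adhesion protein of inhibitory synapses, had 0.93. The study chose Slc32a1, Slc6a11, Aldh5a1, Gabrb1 and Gabarapl1 on these arrays too, so these list counts are not independent evidence of a direction. The study's own directions for these genes were not compared with those given here.

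Of the chloride transporters, Slc12a2, the importer, had −0.71 (adjusted p = 0.0263) and 0.80 (adjusted p = 0.0169). Slc12a5, the exporter, had −2.09 (adjusted p = 0.0699) and 1.16 (adjusted p = 0.294), each with a standard error of 0.87, and was not called. Of 3 tested potassium channel genes through which GABA-B receptors act, Kcnj3 had −1.45 (adjusted p = 0.00953) and 1.13 (adjusted p = 0.0304). The other 2 were not called for either comparison, where 34.9% and 32.9% of all tested probes were called. Neither by genotype on LF diet nor by diet in Acads−/− mice did limma call any gene of these lists, where 0.0182% and 0% of all tested probes were called.

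**Figure D4:**
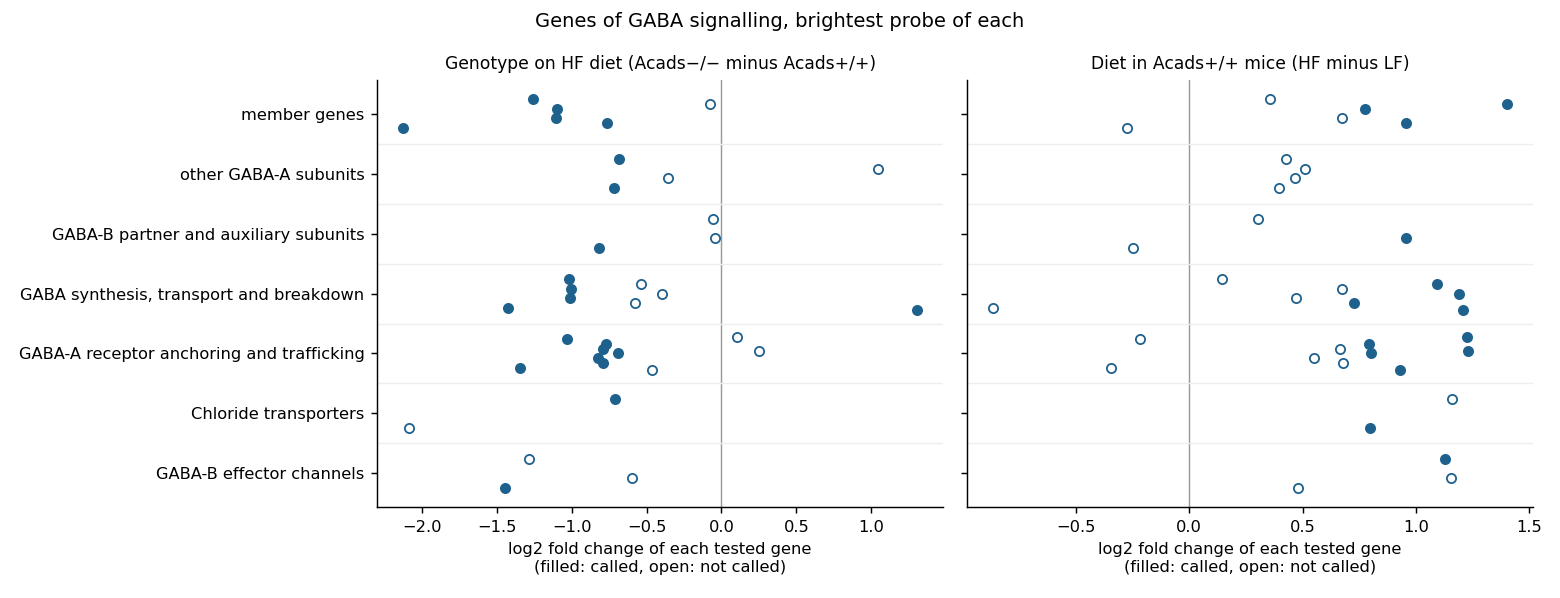
Log2 fold change of each tested gene in the GABA lists (rows) in HF Acads−/− vs. HF Acads+/+ and in HF vs. LF Acads+/+ mice; points are genes by their brightest probe, filled where called, and their vertical position within a row has no meaning. Of the 10 anchoring and trafficking genes, 7 were called lower on the left and 5 higher on the right. Of all tested probes 34.9% and 32.9% were called in these comparisons.

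As families of other transmitter receptors, 12 ionotropic glutamate receptor subunits had 4 lower and 1 higher for genotype on HF diet (median −0.61), where 34.9% of all tested probes were called. Grik5 (−1.38), Gria2 (−1.31), Gria1 (−1.28) and Grin2c (−1.04) were the lower ones. HF vs. LF Acads+/+ mice had 5 higher and 2 lower, where 32.9% of all tested probes were called. Of 2 tested glycine receptor subunits, Glrb, the β subunit that gephyrin anchors, had −1.47 (adjusted p = 0.00278) and 1.56 (adjusted p = 0.00232). Whether the GABA receptor members differed from these families was not tested.

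Markers of inhibitory neurons, 6 of 6 tested, had a median of −0.06 for genotype on HF diet: Gad1 and Slc32a1 were lower, Pvalb was higher (1.18, adjusted p = 0.00415), and the rest were not called. Their summed signal was 1732563 to 1931727 in HF Acads+/+ mice and 1375474 to 1504989 in the other 9 mice. None was at the floor on all 3 arrays of a group. The mean log2 signal of this list overlapped between the Acads+/+ HF arrays (16.92 to 17.35) and the others. In Acads+/+ mice Pvalb (−1.26) and Sst (−0.82) were lower on HF than on LF diet, and Gad1, Gad2 and Slc32a1 were higher. Of markers of neurons in general, 6 tested of 7 listed, again none was at the floor on all 3 arrays of a group. They gave a summed signal of 1800309 to 2050660 in HF Acads+/+ mice and 1229977 to 1410286 in the others. This sum is carried by the bright markers: Eno2 (−1.24) and Nefl (−1.12) were lower for genotype on HF diet, Syt1 was higher (0.98), the median of the 6 was 0.20, and the mean log2 signal of the list overlapped between the Acads+/+ HF arrays (15.47 to 15.82) and the others.

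Markers of other cells moved with the Acads+/+ HF arrays too. Of 14 marker lists, the summed signal of those 3 arrays lay above the other 9 for 5 lists, below them for 5 and overlapped for 4. Among those below, the lists of choroid plexus and hepatocytes share their brightest gene, Ttr, so they are not separate observations. Markers of oligodendrocytes, 4 tested of 6 listed, summed to 428220 to 833475 in HF Acads+/+ mice and to 173702 to 283193 in the others, with Mbp (−1.48) and Cnp (−0.99) lower for genotype on HF diet. Markers of Purkinje neurons, 3 tested of 5, ran the opposite way, with 605715 to 915067 against 1219895 to 1621423, and Pcp2 (1.92) and Pcp4 (1.06) were higher while Calb1 (−0.77) was lower. Markers of red cells, 2 tested of 3, summed to 71225 to 135801 against 295542 to 438455, with Hba-a1 higher (1.91) and Alas2 not called. In HF vs. LF Acads+/+ mice these 2 went opposite ways, Hba-a1 lower (−1.76) and Alas2 higher (1.02), and their mean log2 signal overlapped between the Acads+/+ HF arrays and the others. None of these markers was at the floor on all 3 arrays of a group. The part of cell composition in the members' values was not tested.

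In liver, measured on 12 further arrays of the same groups, the deposited signals of the member probes were 60.3 to 1028, against 1234 to 73561 in brain. Those of Gabra2 and Gabra6 were above the median of liver probes, and the other 5 were below it. The genes whose signal over the 12 brain arrays was most like a member's were Rnf112 (r = 0.98), Wipi2 and Phactr3 for Gabra6, Cdip1 (r = 0.97), Smpd1 and Kcna2 for Gabbr1, and Mab21l1 (r = 0.97), Arfgap2 and Hip1r for Gabrd. For Gabra2 they were Serpina3n (r = 0.96), Vsnl1 and Cyb5r4, for Gabra3 Psap (r = 0.96), Dnajb4 and Kbtbd2, and for probe 406109 of Gabrb2 Stmn3 (r = 0.92), Gstm6 and Aspa. These correlations, over 12 arrays that share the position of the Acads+/+ HF group, are descriptions. After removal of group means they ranged from 0.92 to 0.93 for the 3 genes of Gabra6 and from 0.39 to 0.63 for those of Gabbr1. Among the member probes the highest r was that of Gabra3 and Gabbr1, 0.89, which was −0.11 after removal of group means. Gabra6 and Gabrd had 0.84, and 0.56 after removal. For Gabra2 and probe 406109 of Gabrb2 r was 0.19, and 0.84 after removal, and for that probe and Gabbr1 it was −0.22 and −0.80.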

How the data were processed

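The authors extracted signal intensities from one-colour chemiluminescent arrays (Applied Biosystems Mouse Genome Survey V2.0) with the analyzer software and deposited them without normalization between arrays. The deposited log2 values, made by the authors by quantile normalization, equal the log2 of the quantile-normalized intensities. Signal-to-noise ratios were not used here.

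The intensities of the 12 brain arrays were quantile-normalized and values under the 5th percentile (235) were set to that floor before conversion to log2. Of 33012 probes, the 16506 with a mean signal above the median were fitted with limma 3.58.1 (R 4.3.3), with a mean for each of the 4 groups. A call needed a Benjamini-Hochberg adjusted p under 0.05 over all tested probes and a fold change of at least 1.6. Adjusted p-values in the text are from limma. Residual SD had a median of 0.271 over the tested probes, and 3 mice per group limit the precision. The fit was tested on simulated data.

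The platform annotation gives 14411 probes 1 symbol and 247 several. Genomic span came from RefSeq (GRCm38.p6), for 9027 of 9029 named tested probes. The members, gene lists and markers were chosen with earlier results of these data known. Named genes were the members, Acads, up to 4 called genes per list and comparison with the largest change, and the 3 genes most like each member; other genes, among them the marker genes, were named after their values were seen. Alternatives were scaling to a common median, an offset of 500, testing all probes or the brightest 25%, starting from the authors' log2 values, a replicate block on these, fitting the compared groups alone, the methods' t-test, a call without adjustment or without a minimum fold, removal of the span trend, a fit without the Acads+/+ HF arrays, leaving out each array, and averaging a gene's probes. The dimmer Gabrb2 probe and the contrast of HF Acads−/− with LF Acads+/+ mice were added with the values in view.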

Additional observations from a re-analysis of the deposited data

Results flagged for a closer look

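The effect of diet differed between genotypes by a test of the interaction for 4 genes, where 22.7% of all tested probes were called. The difference in log2 fold change (Acads−/− minus Acads+/+) was −2.03 for Gabbr1, −1.23 for Gabra3, −0.997 for Gabra6 and −0.85 for Gabrd. It was also past the test for probe 732953 of Gabrb2, at −1.27. All use the 3 Acads+/+ HF arrays, which stood apart from the other 9. For Gabrd the diet value was −0.49 in Acads−/− mice and 0.35 in Acads+/+ mice, neither of them called.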

How the results depend on the processing

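No alternative turned the direction of a called member. A direction could turn only under median scaling, the offset, span removal, probe averaging and fits with arrays left out. The other settings kept the members' fold changes and altered only the error, the adjustment or the rule for a call. The call without adjustment and that without a minimum fold could not lose a call. Of the 528 member values under settings other than leaving out an array, 155 kept a call, 16 lost it, 8 gained one and 349 were called in neither; of 504 values with an array left out, 166 kept a call, 14 lost it, 4 gained one and 320 were called in neither. For genotype on HF diet the count of members called was 5. The methods' t-test with Benjamini-Hochberg adjustment called 0 (69 of all tested probes against 5758), with adjusted p of the 5 members from 0.0533 to 0.0797. Its unadjusted form called 5, beside 28.5% of all tested probes. For diet in Acads+/+ mice that adjusted test called 1, against 3 (all tested probes 1373 against 5426). With no filter the interaction was called for 2 members, against 4 (all tested probes 1862 against 3752). Gabra6 (adjusted p = 0.115) and Gabrd (adjusted p = 0.0782) were lost. For diet in Acads+/+ mice 2 members were then called, beside 15.1% of all tested probes, and Gabra2 was lost (adjusted p = 0.0559). Median scaling lost the interaction call of Gabra6 (adjusted p = 0.0577, with 3 members and 21.3% of all tested probes called). Gabra2 gained that call with an offset of 500 (adjusted p = 0.0478), with the 25% filter (adjusted p = 0.0234) and with the replicate block (adjusted p = 0.0415). Setting HF Acads−/− against LF Acads+/+ mice, unadjusted p called 1 member by limma, beside 3.15% of all tested probes. By the methods' t-test it called 1 too, beside 0.891%. Leaving out each array gave 4 to 5 members for genotype on HF diet, 2 to 4 for diet in Acads+/+ mice, 3 to 5 for the interaction, and 0 to 0 for the rest. Of all 16506 tested probes, 4291 to 6947, 3879 to 6650 and 2411 to 5606 were called in the first 3 of these comparisons. Without array 17973, 329 probes of all tested were called for diet in Acads−/− mice, in place of 0, and 195 in the added comparison, in place of 5, with no member among them. With the dimmer Gabrb2 probe 6, 4 and 5 members were called for genotype on HF diet, diet in Acads+/+ mice and the interaction. The shares of all tested probes called there were 34.9%, 32.9% and 22.7%. Replicate numbers, which only the authors' log2 values carry, gave no clear pairing: same-numbered samples had correlations of deviations from group means from −0.12 to 0.22. In Acads+/+ mice, though, each HF sample was most like the LF sample of its own number (0.22, 0.08 and 0.15). In the other comparisons most samples were not. With the replicate block 5, 3 and 5 members were called for genotype on HF diet, diet in Acads+/+ mice and the interaction. That fit called 35.2%, 33.2% and 21.9% of all tested probes. The methods' t-test and the fit on only the groups compared were not run for the interaction. The causes of these shifts were not tested.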
